A study of Mus musculus with 4 samples.

Results

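Coinhibitory receptors are surface proteins that restrain a T cell after it has recognised antigen, and Icos is their costimulatory relative. Ctla4, Pdcd1, Lag3, Havcr2, Tigit, Btla, Cd200r1, Cd200 and Icos were chosen by name as 9 genes of this kind, out of 18194 genes with a probe set of their own on the arrays. Of the 9, 8 had such a probe set and all 8 passed the filter on dim signals, while no single-symbol probe set is listed for Tigit, which was not analysed here. They were compared in GPR15-positive and GPR15-negative CD4 T cells sorted from the lamina propria, the tissue layer beneath the epithelium, of the mouse large intestine.

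Both groups came from mice of mixed 129/B6 background, heterozygous for a green fluorescent protein (GFP) knock-in at Gpr15, so that both carried 1 knock-in allele. Gpr15 encodes a receptor that guides T cells to the large intestine. GPR15-positive cells were the GFP-positive CD4 T cells sorted after collagenase digestion, and GPR15-negative cells were the GFP-negative CD4 T cells of the same preparation. Each group had 2 arrays, numbered replicate 1 and replicate 2, of biotin-labelled total RNA. The labels give neither the age of the mice nor how many were used per sample, and p-values therefore cover only the spread among these 4 samples.

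The receptors work in ligand pairs that meet at the contact between a T cell and another cell. Ctla4 competes with the activating receptor Cd28 for the same ligands, whereas Icos has a ligand of its own. Pdcd1 and Btla recruit tyrosine phosphatases through motifs in their cytoplasmic tails, and Lag3 and Havcr2 act through other tail sequences. Cd200r1 is an inhibitory receptor whose ligand is Cd200. Regulatory T cells, which suppress immune responses and are abundant in the colon, carry Ctla4 constitutively.

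The sort and the arrays were checked first. Gpr15 had signals of 619 and 729 on the GPR15-positive arrays, against 146 and 162 on the GPR15-negative arrays. T cell identity genes, 6 of 7 of which were measured, had summed signals of 13100 and 11169 in GPR15-positive cells and 13445 and 12707 in GPR15-negative cells. Cd4 had signals of 540 and 533 against 501 and 587, although the series description once writes the GFP-negative cells as lacking CD4. Xist, transcribed from the inactive X chromosome, was at 4313 and 4172 on the GPR15-positive and GPR15-negative replicate 1 arrays and at 112 and 55.1 on the replicate 2 arrays. The replicate numbers thus differ in the sex of the mice, and each group holds different mice on its 2 arrays. Since both groups appear under each number, the differences of the coinhibitory genes are also given for replicate 1 and replicate 2 alone. The tests have group as their only term, so the spread behind their intervals and p-values also holds any difference between the sexes. The number of arrays limits the precision of every value.

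The sequences just upstream of the start sites of the 3 genes that differed by at least 2-fold, Havcr2, Pdcd1 and Btla, are shown to place the genes in the genome (RefSeq, build GRCm38.p6, 250 bases before the start site, 5′ to 3′). Promoter windows were on hand for 6 of the 9 genes. Capitals mark matches, on either strand, to 4 motifs: TGANTCA (AP-1), TGGAAA (NFAT), TGTGGT (RUNX) and GNGAAAG (a Blimp-1 core). No matches overlapped in the windows shown, and the Btla window precedes a start site that lies inside the annotated gene.
Havcr2, chr11:46454681-46454930, plus strand: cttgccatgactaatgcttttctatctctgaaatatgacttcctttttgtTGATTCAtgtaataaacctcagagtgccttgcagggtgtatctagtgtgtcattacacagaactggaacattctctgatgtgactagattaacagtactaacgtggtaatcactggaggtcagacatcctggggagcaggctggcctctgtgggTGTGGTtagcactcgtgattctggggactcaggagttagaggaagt
Pdcd1, chr1:94052554-94052803, minus strand: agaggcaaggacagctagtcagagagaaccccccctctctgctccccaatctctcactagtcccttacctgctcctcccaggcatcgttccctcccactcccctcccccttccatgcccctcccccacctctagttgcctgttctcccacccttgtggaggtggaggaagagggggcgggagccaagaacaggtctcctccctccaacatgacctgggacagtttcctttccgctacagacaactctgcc
Btla, chr16:45224087-45224336, plus strand: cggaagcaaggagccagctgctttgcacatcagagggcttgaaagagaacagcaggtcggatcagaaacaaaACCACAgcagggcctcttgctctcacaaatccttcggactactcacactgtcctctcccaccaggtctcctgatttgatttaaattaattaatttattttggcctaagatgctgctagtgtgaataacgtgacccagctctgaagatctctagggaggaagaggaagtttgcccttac
The Havcr2 window held 1 AP-1 match starting 200 bases before the start site, a motif found in 6.75% of all 32851 windows of this length. It also held 1 RUNX match starting 46 bases before the start site, and the Btla window held 1 starting 178 bases before it on the opposite strand, where 14% of all windows hold this motif. No match to the 4 motifs lay in the Pdcd1 window. NFAT motifs occurred in 18.6% and the Blimp-1 core in 19.4% of all windows, and neither lay in the 3 windows shown.

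Signals of Havcr2, Pdcd1, Cd200r1 and Lag3 were higher on both GPR15-positive arrays than on either GPR15-negative array, and Btla was lower on both. Ctla4 and Icos were also above on both arrays but only by 1.24-fold and 1.26-fold, and Cd200 overlapped between the groups. Over all 12253 tested genes, none of the 8 passed an adjusted p under 0.05 in limma with Benjamini-Hochberg adjustment. Of all tested genes 0.0326% passed this threshold, and Gpr15 did not, with a log2 difference of 2.02 and a limma adjusted p of 0.0829. At an unadjusted p under 0.05, 4 of the 8 were higher and 1 was lower, where 14.6% of all tested genes passed, 10.2% as higher and 4.37% as lower. By size, 2 were at least 2-fold higher and 1 at least 2-fold lower with groups that did not overlap, against 3.4% and 1.31% of all tested genes (4.71% in either direction). Groups did not overlap for 6 of the 8 on the higher side and 1 on the lower side, against 28.7% and 18.6% of all tested genes (47.4% together), and 7 of the 8 differences were above 0, against 57.7%. The median log2 difference of the 8 genes was 0.60, and 0.07 over all tested genes. All log2 differences are GPR15-positive minus GPR15-negative on the log2(signal + 16) scale, which understates the change of dim genes. In sorted bulk cells, more cells of a type and more RNA per cell cannot be told apart.

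**Figure D1:**
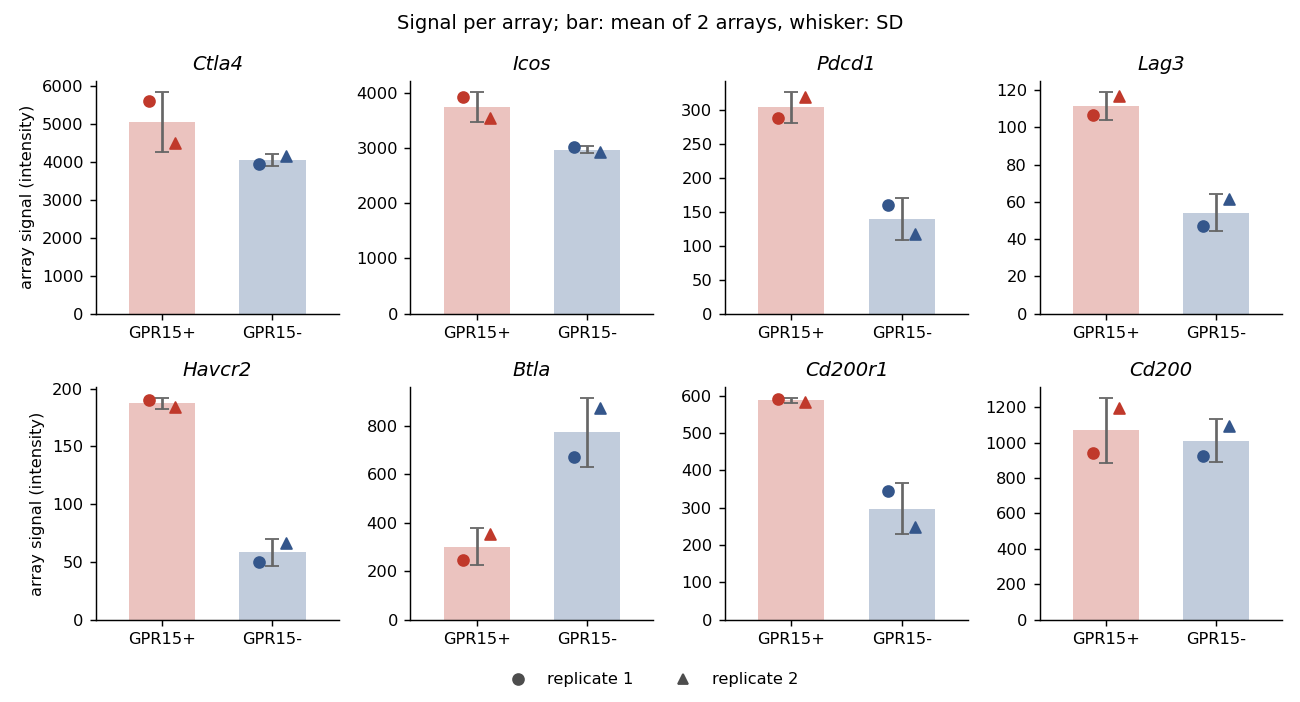
Array signal (intensity, linear axis from 0) of the 8 measured genes in GPR15-positive (left, red) and GPR15-negative cells (right, blue). Points are single arrays, circles for replicate 1 and triangles for replicate 2, bars are means and whiskers are SD (n = 2 each); the groups are apart in every panel except Cd200.

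Havcr2 encodes TIM-3, an inhibitory receptor of effector and regulatory T cells that myeloid cells carry as well. Its signals were 190 and 184 on the GPR15-positive arrays, against 50.3 and 66.7 on the GPR15-negative arrays. Both GPR15-positive arrays lay well above both GPR15-negative arrays. The log2 difference was 1.46 (95% interval 0.90 to 2.01, limma adjusted p = 0.144). Between the replicate 1 arrays it was 1.64 and between the replicate 2 arrays 1.27. This put Havcr2 above 99.3% of all tested genes. Of 15 alternative fits it passed 2, at an adjusted p of 0.0239 with a pseudocount of 64 and 0.0153 with a trended, robust variance in limma, and the adjusted p ran up to 0.385 in the others. The 8 myeloid markers, all measured, had summed signals of 473 and 1505 on the GPR15-positive arrays and 282 and 612 on the GPR15-negative arrays. Of these, Adgre1 was under the dim filter. H2-Aa gave much of the sums, at 180 and 826 against 69.9 and 345. Its groups overlapped, and its 4 probe sets lay between -0.14 and 1.48. Csf1r, the growth factor receptor of macrophages, was at 35.5 and 164 against 7.73 and 10.7, a log2 difference of 1.93, with its 3 probe sets between 0.09 and 1.93 and both GPR15-negative signals under the dim filter of 27.3. The part of myeloid cells in the Havcr2 difference was not tested.

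Pdcd1 encodes PD-1, which dampens signalling by the T cell receptor and Cd28. Its signals were 288 and 320 in GPR15-positive cells and 161 and 117 in GPR15-negative cells. The groups did not overlap, and the gap was wider between the replicate 2 arrays. The log2 difference was 1.06 (0.46 to 1.66, limma adjusted p = 0.212), or 0.78 for replicate 1 alone and 1.34 for replicate 2 alone. The difference was above that of 97.2% of tested genes.

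Cd200r1 was represented by 2 probe sets. On the one of higher mean the signals were 592 and 583 in GPR15-positive cells, against 345 and 249 in GPR15-negative cells, a log2 difference of 0.96 (0.36 to 1.56, limma adjusted p = 0.229). On the other they were 258 and 251 against 257 and 107, a log2 difference of 0.56 (-0.41 to 1.53). The second probe set was level within replicate 1, at 0.00, and differed by 1.11 within replicate 2, while the first gave 0.75 and 1.18. The probe sets therefore disagree for replicate 1. Myeloid and mast cells carry Cd200r1 too, and the part of other cells in this difference was not tested.

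Lag3 encodes a receptor related to Cd4 that binds major histocompatibility complex class II, and the genes Lag3 and Cd4 are neighbours on chromosome 6. Lag3 signals were 106 and 117 in GPR15-positive cells and 47.2 and 61.4 in GPR15-negative cells. The groups were apart in both replicates, with differences of 0.96 and 0.78. The pooled log2 difference was 0.87 (0.31 to 1.42, limma adjusted p = 0.233), while that of Cd4 was -0.01 (-0.54 to 0.51). With a pseudocount of 64 the Lag3 difference was 0.57, and with a pseudocount of 1 it was 1.04.

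Btla was the member with lower signals in GPR15-positive cells. Its product binds Tnfrsf14 and is found on naive T cells and B cells. Signals were 249 and 356 on the GPR15-positive arrays, against 673 and 873 on the GPR15-negative arrays. Every GPR15-positive array was below every GPR15-negative one, and within both groups replicate 2 had the higher value. The log2 difference was -1.32 (-1.99 to -0.65, limma adjusted p = 0.186), or -1.38 for replicate 1 alone and -1.26 for replicate 2 alone. Only 0.563% of tested genes had a lower difference. Btla passed in the same 2 alternative fits as Havcr2, at adjusted p of 0.0301 with a pseudocount of 64 and 0.0153 with the trended, robust variance, and had an adjusted p of up to 0.466 elsewhere. B cell markers, 4 of 5 of which were measured, had summed signals of 211 and 182 in GPR15-positive cells and 89.7 and 154 in GPR15-negative cells. Of these, 1 was under the dim filter, and the 3 others had differences above 0, as did 57.7% of all tested genes. The part of B cells in the Btla difference was not tested.

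Ctla4, whose product takes the ligands of Cd28 from the surface of other cells, had signals of 5598 and 4481 in GPR15-positive cells and 3925 and 4149 in GPR15-negative cells. Both GPR15-positive arrays were above both GPR15-negative arrays, but the gap was small within replicate 2. The log2 difference was 0.31 (-0.25 to 0.87, limma adjusted p = 0.576), or 0.51 for replicate 1 alone and 0.11 for replicate 2 alone, and it turned to -0.01 under median scaling.

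Icos, which supports helper and regulatory T cell responses, had signals of 3936 and 3551 against 3023 and 2928 on its probe set of highest mean. The other 2 probe sets gave 3186 and 3112 against 2577 and 2460, and 4040 and 3203 against 2856 and 3225. The groups overlapped on the last of these. The log2 differences of the 3 probe sets were 0.33 (-0.19 to 0.84), 0.32 and 0.24, and that of the first was 0.38 for replicate 1 alone, 0.28 for replicate 2 alone and 0.01 under median scaling. Ctla4 lies between Cd28 and Icos on chromosome 1, and Cd28, named here as that neighbour with its value seen, differed by -0.09 (-0.60 to 0.42), with signals of 2881 and 2941 in GPR15-positive cells and 3214 and 3006 in GPR15-negative cells.

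Cd200, the ligand of Cd200r1, had signals of 940 and 1196 in GPR15-positive cells and 924 and 1095 in GPR15-negative cells. The groups overlapped, and replicate 2 had the higher value in both. The log2 difference was 0.07 (-0.51 to 0.66, limma adjusted p = 0.919; 0.02 for replicate 1 alone and 0.13 for replicate 2 alone), which was also the median over all tested genes. Cd200 and Btla are neighbouring genes on chromosome 16, and their differences were 0.07 and -1.32.

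**Figure D2:**
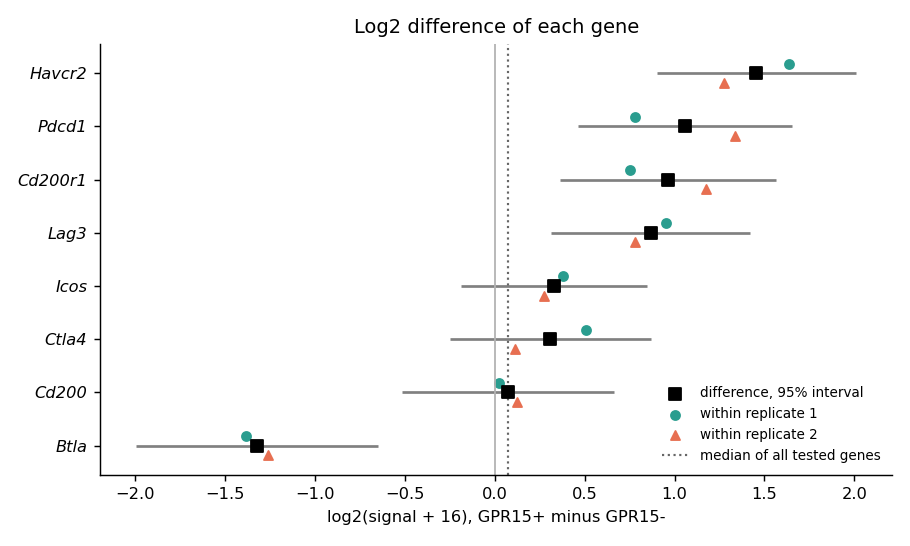
Log2 difference of each gene, GPR15-positive minus GPR15-negative (horizontal axis, log2(signal + 16) scale), as squares with 95% intervals, with the differences within replicate 1 (circles) and replicate 2 (triangles) and the median of all tested genes (dotted line). The intervals of Havcr2, Pdcd1, Cd200r1 and Lag3 lie above 0, that of Btla lies below 0, and those of Icos, Ctla4 and Cd200 include 0.

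Genes with the nearest pattern over the 4 arrays were found by the Euclidean distance between log2 profiles, each centred on its mean, over the 12253 tested genes. For Havcr2 these were Pcsk1, Fmnl2 and Myo1e, at distances of 0.091, 0.115 and 0.123. For Pdcd1 they were Slc52a3, Dcxr and Sesn2, at 0.087, 0.087 and 0.100. Both GPR15-negative signals of Dcxr, 24.8 and 13.2, were under the dim filter of 27.3, so it was tested only through its GPR15-positive signals. For Btla they were Ms4a6c, Hivep3 and Dtx4, at 0.066, 0.122 and 0.150. Pdcd1 and Cd200r1 were at a distance of 0.153 from each other, and Ctla4 and Icos at 0.151. These were the closest pairs of the 8 genes, and Havcr2 and Btla were the furthest apart, at 2.80. How small such distances are for genes in general was not computed. Ms4a6c had signals of 468 and 645 in GPR15-positive cells against 1286 and 1638 in GPR15-negative cells. Replicate 2 was the higher in both groups, as for Btla, a likeness that follows from its choice by distance.

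Among other inhibitory receptors, 9 of 12 listed genes were tested and none passed the adjusted threshold in limma. At an unadjusted p under 0.05, 2 were higher and none lower, against 10.2% and 4.37% of all tested genes. The median log2 difference was 0.23, and -0.03 under median scaling, against 0.07 and -0.20 over all tested genes. Klrg1, a receptor of terminally differentiated T cells, had signals of 2891 and 2048 in GPR15-positive cells against 649 and 235 in GPR15-negative cells, a log2 difference of 2.58. Cd300a, an inhibitory receptor found on many leukocytes, had signals of 43.6 and 60.5 against 12.04 and 12.5, a log2 difference of 1.26, while its other probe set gave -0.04. Both GPR15-negative signals of Cd300a were under the dim filter of 27.3, so it was tested only through its GPR15-positive signals. Cd96, a receptor for Pvr, differed by -0.28 (-0.88 to 0.32).

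Of 8 costimulatory receptor genes, all tested, none passed after adjustment in limma. At an unadjusted p under 0.05, 3 were higher and none lower, against 10.2% and 4.37% of all tested genes. The 3 belong to the tumour necrosis factor receptor family, which regulatory T cells also carry. Cd27, of the same family and named after its value was seen, differed by 0.42 (-0.10 to 0.93). Tnfrsf9 (4-1BB) had signals of 4239 and 3795 in GPR15-positive cells against 1703 and 1882 in GPR15-negative cells, a log2 difference of 1.16, with its probe sets between 0.29 and 2.11. Tnfrsf4 (OX40) differed by 1.10 and Tnfrsf18 (GITR) by 0.86. The median of the 8 was 0.38, and 0.07 under median scaling, against 0.07 and -0.20 over all tested genes.

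The ligands were read in the same cells, where they can be carried by T cells or by other cells left after the sort. Of 15 listed, 12 were tested, and none passed after adjustment in limma. At an unadjusted p under 0.05, 3 were higher and 1 lower, against 10.2% and 4.37% of all tested genes. Cd86 and Cd80, the ligands of Ctla4 and Cd28, had log2 differences of 1.09 and 0.87, with Cd86 signals of 73.2 and 59.4 in GPR15-positive cells against 20.9 and 24.2 in GPR15-negative cells. Both GPR15-negative signals of Cd86 were under the dim filter, so it too was tested only through its GPR15-positive signals. Antigen-presenting cells carry both ligands, and the sums of myeloid markers given for Havcr2 were higher in GPR15-positive cells within each replicate number. Their part in these differences was not tested. Lgals3 (galectin-3), which binds Lag3 among other glycoproteins, differed by 1.01.
Further ligands were named after their values were seen. Cd274 (PD-L1) had signals of 2200 and 1908 against 2156 and 1961, a log2 difference of -0.01 (-0.54 to 0.53), and Pdcd1lg2 (PD-L2) differed by 0.28 (-0.31 to 0.87). Icosl differed by -0.67 (-1.27 to -0.06), with its other probe set at 0.16. Tnfrsf14, the partner of Btla, had low signals of 7.27 and 39.3 against 49.5 and 39.2 and differed by -0.74 (-1.80 to 0.31).

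Genes of receptor signalling, 15 of 15 tested, had a median of -0.28, or -0.59 under median scaling, against 0.07 and -0.20 over all tested genes. Differences were positive for 4 and negative for 11, where 57.7% of all tested genes had a difference above 0. None passed after adjustment in limma, and 1 was lower at an unadjusted p under 0.05, as were 4.37% of all tested genes. That gene was Sh2d1a, the adaptor SAP, with signals of 573 and 718 in GPR15-positive cells against 909 and 1044 in GPR15-negative cells and a log2 difference of -0.59. Ptpn11 (SHP-2), a phosphatase that PD-1 recruits, differed by -0.47 (-1.06 to 0.12), with its 3 probe sets between -0.73 and 0.56. The ubiquitin ligase gene Cblb differed by -0.42 (-0.97 to 0.13). Genes of receptor trafficking and turnover, 10 of 10 tested, had a median of 0.00, or -0.31 under median scaling. At an unadjusted p under 0.05, where 4.37% of all tested genes were lower, 1 was lower. It was Trat1, which encodes the adaptor TRIM that brings Ctla4 to the cell surface, with signals of 1319 and 1788 against 2457 and 2540 and a log2 difference of -0.70. Adam17, a protease that can shed Lag3, differed by 0.39 (-0.12 to 0.90), and Cmtm6, which stabilises PD-L1, by 0.37 (-0.15 to 0.88).

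Transcription factors linked to coinhibitory genes went both ways. Of 21 listed, 20 were tested and none passed after adjustment in limma. By an unadjusted p under 0.05, 4 were higher and another 5 lower, against 10.2% and 4.37% of all tested genes. Foxp3, the lineage factor of regulatory T cells, had signals of 441 and 472 in GPR15-positive cells and 76.6 and 72.2 in GPR15-negative cells, a log2 difference of 2.38. The 4 regulatory T cell markers, Foxp3 included, had summed signals of 6222 and 5549 against 3325 and 3068. Ikzf2, named after its value was seen, gave most of each sum, at 4364 and 3833 against 2661 and 2526. Its log2 difference was 0.65, with its 3 probe sets between 0.65 and 2.10. Il2ra (CD25), which binds interleukin-2, had a log2 difference of 1.24, and Ikzf4 (Eos), a partner of Foxp3, of 1.40, with its probe sets between 0.28 and 1.40. The part of regulatory T cells in the differences of the coinhibitory receptors was not tested. Prdm1 (Blimp-1), which with Maf drives a coinhibitory programme in mouse T cells, had signals of 730 and 533 against 245 and 204, a log2 difference of 1.42. Maf, named after its value was seen, differed by 0.07 (-0.48 to 0.63), with its 6 probe sets between -0.60 and 0.61. Nfil3, known to raise Havcr2 in mouse T cells, differed by 1.05, and Tox, also named after its value was seen, by 0.58. The median of the 20 was 0.07, and -0.25 under median scaling, against 0.07 and -0.20 over all tested genes.
The lower factors were Bach2, a repressor of effector differentiation, at -1.45, the T-box factors Tbx21 and Eomes at -1.42 and -1.13, and Egr2 and Egr3, induced by the T cell receptor, at -1.09 each, with another probe set of Egr3 at 0.35. Bach2 had signals of 252 and 238 in GPR15-positive cells against 816 and 597 in GPR15-negative cells.

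**Figure D3:**
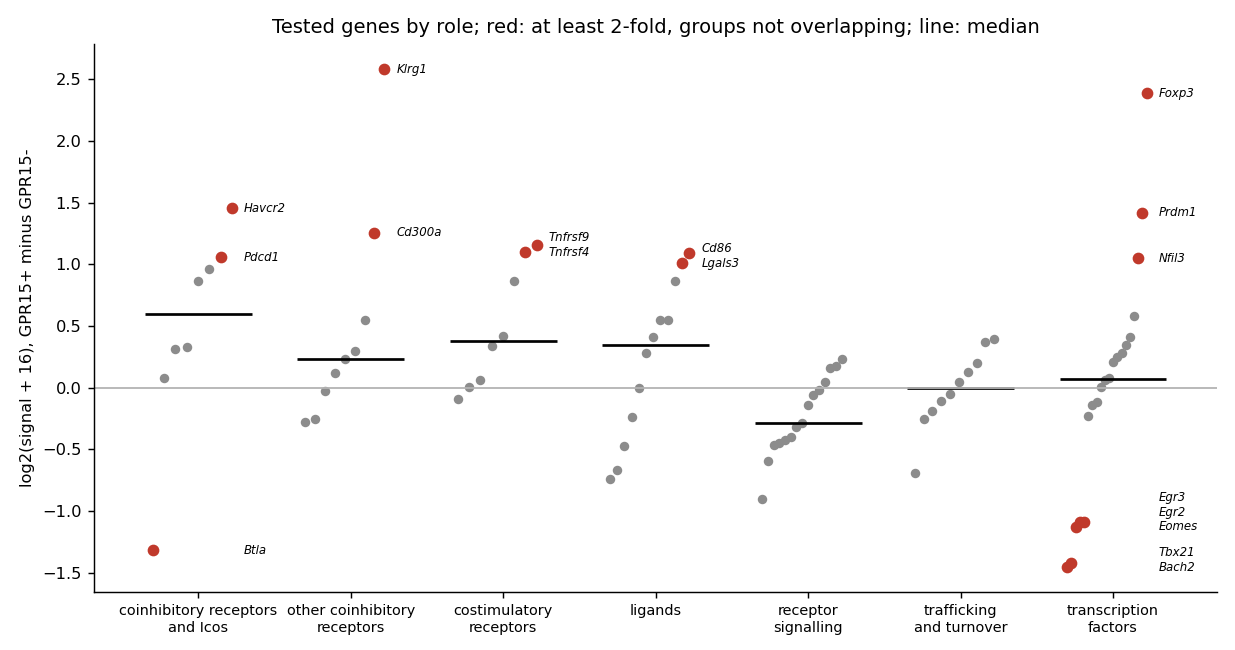
Log2 differences (GPR15-positive minus GPR15-negative, log2(signal + 16) scale) of every tested gene in 7 groups by role, with the median of each as a line. Red points are genes at least 2-fold different with groups that did not overlap; such genes appear on both sides of 0 among the coinhibitory receptors and the transcription factors, and none appear in the signalling and trafficking groups.

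Markers of other cells were measured beside the members. The 5 epithelial markers had summed signals of 1247 and 346 on the GPR15-positive arrays and 315 and 358 on the GPR15-negative arrays, so GPR15-positive replicate 1 stood apart in the sum. Epcam, an adhesion protein of epithelial cells, was higher on both GPR15-positive arrays, at 246 and 175 against 72.3 and 42.5, a log2 difference of 1.64, or 1.70 for replicate 2 alone, with its other probe set at 0.94. The other epithelial markers were higher within replicate 1 but lower within replicate 2. There they differed by -0.44 for Krt8, -1.09 for Krt20, -0.86 for Cdh1 and -0.40 for Vil1, which was under the dim filter. Without GPR15-positive replicate 1, the log2 differences were 1.43 for Havcr2, 1.13 for Pdcd1 and -1.07 for Btla. Epcam was also higher on the GPR15-positive array that remained, so leaving out replicate 1 cannot decide the part of epithelial cells. Plasma cell markers summed to 6788 and 4417 against 4134 and 4806, mast cell markers to 205 and 296 against 140 and 100.3, and those of CD8 T and natural killer cells to 77.0 and 91.5 against 79.6 and 63.7. Among the mast cell markers Kit, a growth factor receptor, was at 98.1 and 270.3 against 64.4 and 26.5, a log2 difference of 1.63. Kit was the only mast cell marker tested and gave most of the sum on GPR15-positive replicate 2. The other 3 were under the dim filter, with differences of -0.93 for Mcpt1, -0.26 for Cpa3 and 0.40 for Mcpt2. Endothelial and fibroblast markers summed to 461 and 738 against 319 and 853. The part of these cells in the differences of the coinhibitory receptors was not tested.

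**Figure D4:**
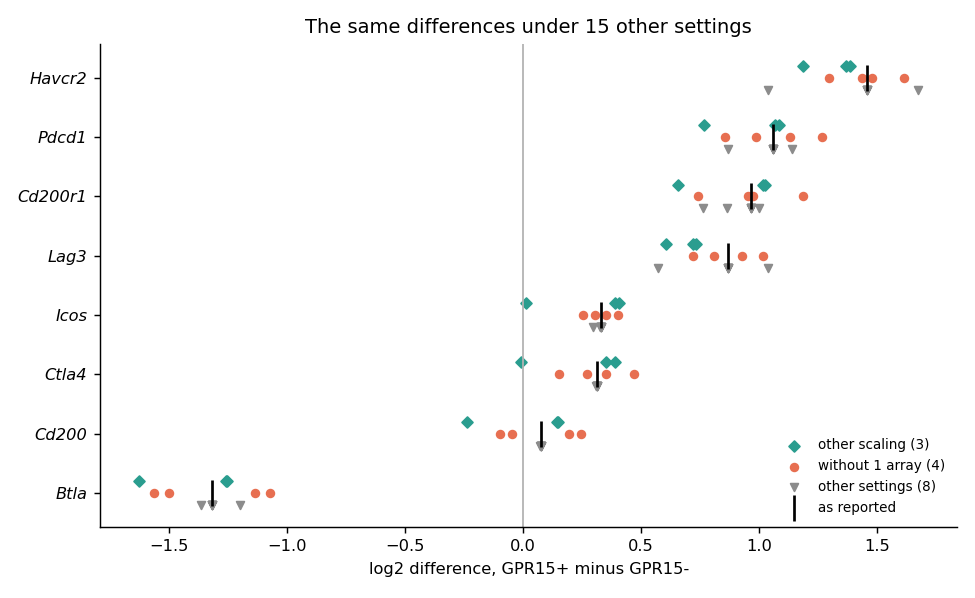
Log2 difference of each gene (GPR15-positive minus GPR15-negative) as reported (vertical ticks) and under 15 other settings: 3 scalings (diamonds), leaving out 1 of the 4 arrays (circles) and 8 other settings (downward triangles). Havcr2, Pdcd1, Cd200r1 and Lag3 stay above 0 and Btla below 0 in all of them, whereas Ctla4 and Cd200 cross 0.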

How the data were processed

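Total RNA of sorted CD4 T cells was extracted with Trizol, biotin-labelled and hybridised to Affymetrix arrays, per the labels' protocols. The deposited values are linear intensities, with 1 value for each probe set on an array. How the authors summarised and scaled them is not given in the sources used here. Without the lowest and highest 2% of probe sets, all 4 arrays averaged 150.001, while medians were 45.2 to 46.0 on GPR15-positive and 36.1 to 37.0 on GPR15-negative arrays, so quantiles had not been equalised. Detection calls were not used here.

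Of 45101 probe sets, 34958 had 1 symbol in the platform annotation. The probe set with the highest mean log2(intensity + 16) stood for a gene. Genes were tested if that mean passed 27.3, the 40th percentile over probe sets other than controls, which left 12253 genes. They were tested two-sided with limma 3.58.1 in R 4.3.3, group as the only term, with Benjamini-Hochberg adjustment over these genes. An exact permutation test of 2 arrays against 2 cannot go below p = 0.333. The fit was tested on simulated data.

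The 9 genes, the lists and the tests were chosen with earlier results of these data known. Named genes were the 9, Gpr15 and Foxp3, the list genes at least 2-fold different with non-overlapping groups, filled up to 3 by smallest p in the lists by role but not in the cell type marker lists, and the 3 nearest patterns of each of the 9 that differed by at least 2-fold.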

Additional observations from a re-analysis of the deposited data

How the results depend on the processing

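The 8 differences were recomputed under 15 alternatives. Havcr2 (1.04 to 1.67), Pdcd1 (0.76 to 1.26), Cd200r1 (0.66 to 1.19), Lag3 (0.57 to 1.04), Icos (0.01 to 0.41) and Btla (-1.63 to -1.07) kept their sign in all 15. With all 4 arrays kept, counts of genes at least 2-fold apart with groups that did not overlap ran from 2 to 4 of the 8. The share of all tested genes, 4.71%, was computed for the fit as reported only, so these counts have no background of their own. Ctla4 turned to -0.0081 under median scaling, and Cd200 turned to -0.24 there. Without 1 array Cd200 ran from -0.10 (without GPR15-positive replicate 2) to 0.25 (without GPR15-positive replicate 1), and it was -0.05 without GPR15-negative replicate 1. Havcr2 and Btla passed at a pseudocount of 64 (1.04 and -1.20) and with trend and robust settings (1.46 and -1.32); the cause was not tested. Median scaling moved the median of all tested genes by -0.27, to -0.20; relative to it the differences were 1.38 for Havcr2, 0.96 for Pdcd1, 0.86 for Cd200r1, 0.80 for Lag3, 0.21 for Icos, 0.19 for Ctla4, -0.04 for Cd200 and -1.43 for Btla. The median of the 8 was 0.45 at a pseudocount of 64, 0.31 under median scaling and 0.54 to 0.64 without 1 array.

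Over all genes, 4 passed an adjusted p under 0.05 in limma as reported, 175 at a pseudocount of 64, 50 with the dim filter at the 60th percentile, 241 with trend and robust settings and 8 with the mean of probe sets. The count was 0 at a pseudocount of 1, without the dim filter, with every probe set on its own, under each of the 3 scalings, in the fit with a replicate block, and without any 1 array (range 0 to 0), where limma takes the lone array to vary like the others. Deviations of same-numbered arrays correlated at 0.198, and the labels do not say that a number marks shared mice. The replicate block changed no call among the 8, with log2 differences equal to those reported, such as 1.46 for Havcr2. Under the block the limma adjusted p was 0.128 for Havcr2 and 0.133 for Btla. The 2 arrays a group limit the precision of all these values.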
